A study of Mus musculus with 22 samples.

Results

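The 9 genes described here belong to interleukin 1 (IL-1) and gp130 cytokine signalling and were examined in the hypothalamus of mice carrying Lewis lung carcinoma. They were 2 cytokine genes (Il1b and Il6), 6 receptor chain genes (Il1r1, Il1rap, Il6ra, Il6st, Osmr and Lifr) and the transcription factor gene Stat3. The 9 genes were chosen by name, with earlier results of these data known, and each had 1 probe set of its own, out of 18820 genes measured. The series title concerns food intake and serotonin signalling in tumour-bearing cachectic mice.

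All mice were male C57BL/6 and housed singly, and the age given for the inoculated mice was 6 weeks. Tumour-bearing mice had received Lewis lung carcinoma cells, a transplantable mouse tumour, in a hind-leg muscle. Day 10 after inoculation is represented by 5 of these mice, day 14 by 7 and day 17 by 6. The 4 controls were killed on day 14, and the labels do not say whether they received an injection, so the comparisons of days 10 and 17 also hold a difference in day. All mice were anaesthetised with ketamine and xylazine before the tissue was taken. Each array held RNA from the hypothalamus of 1 mouse. In such bulk tissue, more cells of a type and more RNA per cell cannot be told apart.

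IL-1 binds the receptor encoded by Il1r1, which signals only together with the accessory protein encoded by Il1rap, through MyD88 and NF-kB. Cytokines of the IL-6 family bind receptor complexes that contain gp130, the product of Il6st, and signal through JAK kinases and STAT3. The IL-6 receptor (Il6ra), the oncostatin M receptor (Osmr) and the LIF receptor (Lifr) give those complexes their specificity. In the brain, IL-1 receptors are known on vessel endothelium, and IL-1 and IL-6 acting on the hypothalamus are known for fever, loss of appetite and activation of the stress axis.

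The promoters of Il1r1 and Osmr are shown first because these were the 2 genes that rose. Each sequence is the 250 bases before an annotated gene start on the gene's own strand, from RefSeq (GRCm38.p6), and capitals mark a match to the NF-kB motif. The 2 entries of Il1r1 lie at chr1:40224830-40225079 (plus strand) and chr1:40266336-40266585 (plus strand), and that of Osmr at chr15:6874314-6874563 (minus strand).
Il1r1, upstream start: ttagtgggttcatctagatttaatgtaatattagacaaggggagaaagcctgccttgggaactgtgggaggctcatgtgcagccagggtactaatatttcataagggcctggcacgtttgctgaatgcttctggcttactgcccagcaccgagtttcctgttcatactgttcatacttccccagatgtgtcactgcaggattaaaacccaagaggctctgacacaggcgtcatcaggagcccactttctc
Il1r1, downstream start: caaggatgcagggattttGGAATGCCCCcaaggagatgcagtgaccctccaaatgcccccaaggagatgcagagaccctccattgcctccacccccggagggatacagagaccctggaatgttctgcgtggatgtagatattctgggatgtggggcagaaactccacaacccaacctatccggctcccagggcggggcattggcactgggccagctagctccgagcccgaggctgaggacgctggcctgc
Osmr: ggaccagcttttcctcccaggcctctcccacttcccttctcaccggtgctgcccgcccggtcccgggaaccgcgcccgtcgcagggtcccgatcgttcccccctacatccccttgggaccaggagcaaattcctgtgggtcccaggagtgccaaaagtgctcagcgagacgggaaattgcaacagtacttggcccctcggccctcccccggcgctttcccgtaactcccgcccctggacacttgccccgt

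A promoter entry was found for 9 of the 9 genes, 11 entries in all, and each was searched on both strands from 250 bases before to 50 bases after the start. The NF-kB motif matched in Il1r1 (the minus strand of the downstream start, beginning at position -232) and in Il6 (position -44), and in 4.51% of all 32851 promoter entries. The STAT motif TTCNNNGAA and the glucocorticoid response element ACANNNTGT matched in none of the 11 entries, and in 8.3% and 6.85% of all entries. The TATA box TATAAA matched in Il1b at position -31, and in 13.6% of all entries. No overlap between motifs occurred in these entries. A match describes letters only, and the array does not tell which start was used.

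Il1r1, the signalling receptor for IL-1, was higher in every tumour-bearing mouse than in every control. On the log2 scale the 4 controls read 5.11, 5.18, 5.17 and 5.46. The 5 mice of day 10 read 6.11, 6.03, 5.84, 6.53 and 6.21. The 7 mice of day 14 ran from 5.66 over a median of 6.04 to 6.76, and the 6 mice of day 17 from 5.69 over a median of 6.11 to 6.18. The tumour-bearing groups overlapped each other, and day 14 was the most spread of the 4 groups. The control mean was 5.23 ± 0.16 (SD, n = 4). The means were 6.15 ± 0.26 on day 10 (n = 5), 6.14 ± 0.40 on day 14 (n = 7) and 6.01 ± 0.20 on day 17 (n = 6). Il1r1 rose by 0.91 ± 0.18 (SE, log2) on day 10, a 1.88-fold difference (limma, Benjamini-Hochberg adjusted over all genes, adjusted p = 0.0410). It rose by 0.91 ± 0.17 on day 14 (limma adjusted p = 0.0148) and by 0.78 ± 0.17 on day 17 (limma adjusted p = 0.0302).

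Osmr, the oncostatin M receptor chain, was higher in 17 of the 18 tumour-bearing mice than in every control. The 4 controls read 5.61, 5.60, 5.32 and 5.75, and the 5 mice of day 10 read 6.19, 6.40, 6.02, 6.25 and 6.25. Day 14 ran from 5.73 over a median of 6.30 to 6.53, and day 17 from 5.96 over a median of 6.15 to 6.29. All mice of days 10 and 17 lay above every control, and so did 6 of the 7 mice of day 14. The exception, replicate 6 of day 14, was also the lowest of its group for Il1r1. Means were 5.57 ± 0.18 in controls (SD, n = 4), 6.22 ± 0.14 on day 10 (n = 5), 6.26 ± 0.27 on day 14 (n = 7) and 6.13 ± 0.14 on day 17 (n = 6). Osmr rose by 0.65 ± 0.13 (SE, log2) on day 10, a 1.57-fold difference (limma adjusted p = 0.0410). It rose by 0.69 ± 0.12 on day 14 (limma adjusted p = 0.00966) and by 0.56 ± 0.12 on day 17 (limma adjusted p = 0.0276).

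**Figure D1:**
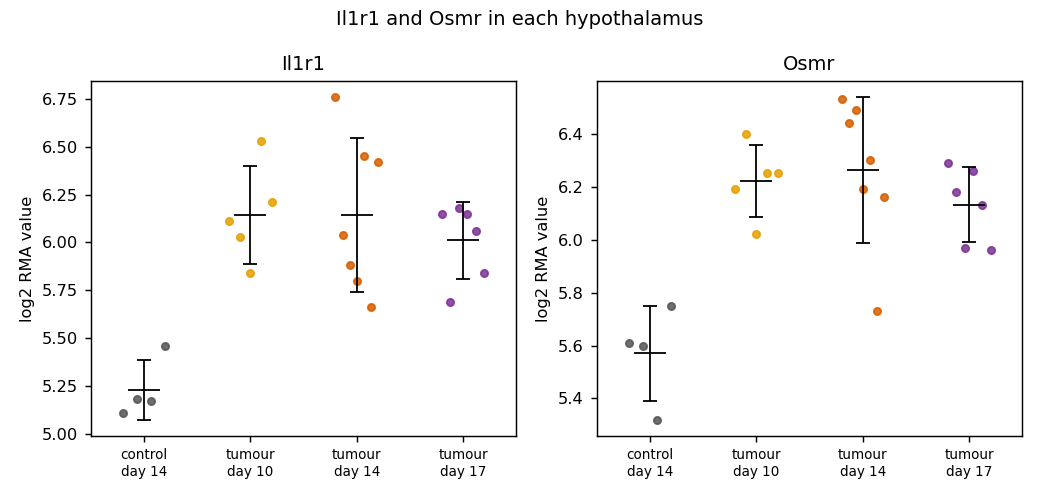
Log2 RMA values of Il1r1 and Osmr for each mouse (points) in the 4 groups, with the group mean and SD (bars). Every tumour-bearing mouse lay above every control for Il1r1, and all but replicate 6 of day 14 did so for Osmr.

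In each of the 3 comparisons with control, limma called 2 of the 9 genes, Il1r1 and Osmr, both higher in tumour-bearing mice. Of all genes, 0.106%, 0.218% and 1.12% were called on these days in either direction, and 0.101%, 0.197% and 0.436% were called higher. The 3 comparisons share the same 4 controls. At an unadjusted p below 0.05 there were 3, 4 and 4 of the 9 genes, beside 10.7%, 10.5% and 16.6% of all genes. The median difference of the 9 genes was 0.14, 0.15 and 0.13 (log2), beside 0.00, -0.00 and -0.01 over all genes. The groups did not overlap for Il1r1, Il6ra and Osmr on day 10, for Il1r1 on day 14, and for Il1b, Il1r1 and Osmr on day 17. Of all genes, 2.21%, 0.776% and 1.66% had all tumour-bearing mice above all controls on these days.

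**Figure D2:**
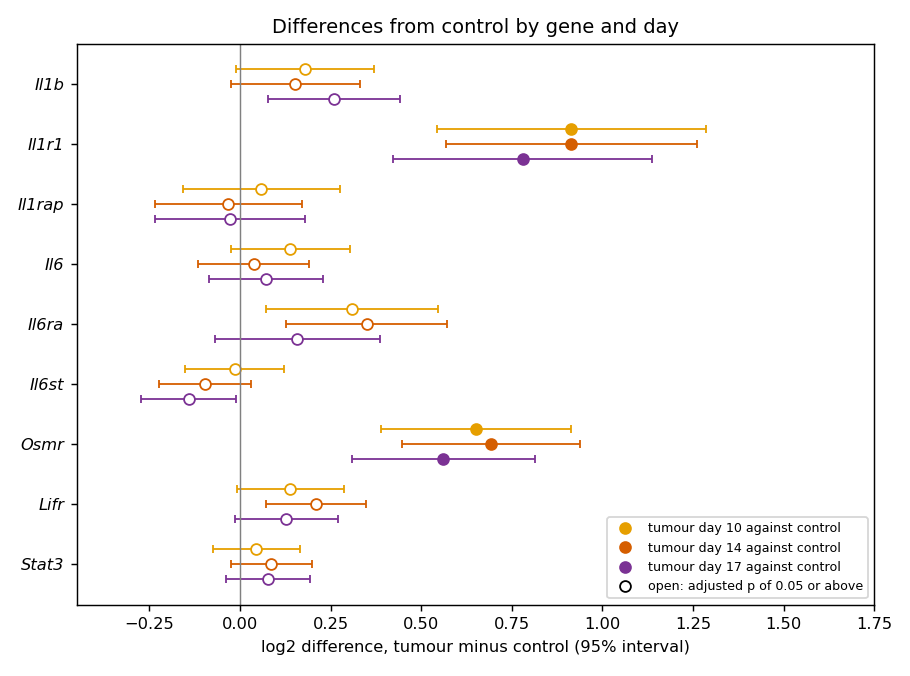
Log2 difference, tumour-bearing minus control, with its 95% interval from the limma fit for each of the 9 genes on days 10, 14 and 17. Filled points passed an adjusted p of 0.05, and these were Il1r1 and Osmr on each day.

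The calls of Il1r1 and Osmr changed when single mice were left out. On each of the 3 days neither gene was called without control replicate 1, 2 or 3 (limma adjusted p for Il1r1 up to 0.196 on day 10, 0.110 on day 14 and 0.112 on day 17, and for Osmr up to 0.182, 0.0839 and 0.125). Few genes of any kind were called in these 3 fits: 0, 0 and 0 on day 10, 4, 2 and 2 on day 14, and 37, 59 and 56 on day 17, beside 20, 41 and 211 with all mice. Leaving out control replicate 4, the highest control for both genes, kept both calls, with 24, 109 and 260 genes called in all. On day 10 neither was called without replicate 1, 2, 4 or 5 of that day, or without replicate 4 or 5 of day 17. Of all genes, 4, 1, 2 and 8 were called in the former fits and 11 and 14 in the latter. Also on day 10, Il1r1 alone lost its call without replicate 2 of day 14 or replicate 3 or 6 of day 17, and Osmr alone without replicate 4 or 7 of day 14 or replicate 2 of day 17. Between 16 and 18 genes were called in all in each of these fits. On day 17 neither was called without replicate 1, 4 or 5 of that day, Osmr was not called without replicate 2, and Il1r1 was not called without replicate 3. Of all genes, 141, 74 and 100 were called on day 17 without replicate 1, 4 or 5, 94 without replicate 2 and 108 without replicate 3. Over the 22 fits that each left out 1 mouse, the difference of Il1r1 stayed between 0.82 and 0.99 on day 10, 0.81 and 0.99 on day 14 and 0.74 and 0.86 on day 17. That of Osmr stayed between 0.57 and 0.71, 0.61 and 0.78, and 0.48 and 0.62.

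Among the cytokines, Il1b, which encodes IL-1 beta, and Il6, which encodes interleukin 6, lay below the background measure on all 22 arrays. That measure was 3.87 on the log2 scale, and 95% of 1182 probe sets for odorant and vomeronasal receptors lay below it. Il1b read 3.30, 3.18, 3.38 and 3.27 in controls and 3.62, 3.45, 3.38, 3.43 and 3.43 on day 10. It ran from 3.07 over a median of 3.43 to 3.68 on day 14 and from 3.43 over a median of 3.51 to 3.71 on day 17. All 6 mice of day 17 lay above the controls, while day 14 held both lower and higher values than the controls. The differences of Il1b were 0.18 ± 0.09, 0.15 ± 0.09 and 0.26 ± 0.09 (SE, log2) on days 10, 14 and 17, and none was called (limma adjusted p = 0.504, 0.546 and 0.142).

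Il6 read 2.26, 2.05, 2.10 and 2.10 in controls and 2.61, 2.17, 2.27, 2.13 and 2.15 on day 10. It ran from 2.07 over a median of 2.16 to 2.32 on day 14 and from 2.14 over a median of 2.17 to 2.34 on day 17. All groups overlapped, and control replicate 1 was higher than most tumour-bearing mice. The differences of Il6 were 0.14 ± 0.08, 0.04 ± 0.07 and 0.07 ± 0.08 (SE, log2), with limma adjusted p = 0.546, 0.887 and 0.675. At this signal a difference in either cytokine would be hard to detect, so the values do not show that the transcripts were absent or equal between groups.

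Il1rap, the accessory chain that Il1r1 needs for signalling, overlapped between all groups. Controls read 7.77, 7.57, 7.69 and 7.48, and the mice of day 10 read 8.01, 7.74, 7.45, 7.67 and 7.57. Day 14 ran from 7.44 over a median of 7.55 to 7.91, and day 17 from 7.44 over a median of 7.64 to 7.73. The differences were 0.06 ± 0.10, -0.03 ± 0.10 and -0.03 ± 0.10 (SE, log2), with limma adjusted p = 0.868, 0.937 and 0.924. The 95% intervals of Il1rap ran from -0.16 to 0.28, from -0.23 to 0.17 and from -0.23 to 0.18, so each upper bound lay below the lower bound for Il1r1 on the same day (0.54, 0.57 and 0.42).

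Il6ra, the chain that binds IL-6, read 5.65, 5.54, 5.51 and 5.45 in controls and 6.12, 5.91, 5.70, 5.80 and 5.70 on day 10. It ran from 5.57 over a median of 5.85 to 6.28 on day 14 and from 5.48 over a median of 5.72 to 5.84 on day 17. The 5 mice of day 10 and 6 of the 7 mice of day 14 lay above all controls, and so did 4 of the 6 mice of day 17. The differences of Il6ra were 0.31 ± 0.11, 0.35 ± 0.11 and 0.16 ± 0.11 (SE, log2), and none was called (limma adjusted p = 0.340, 0.208 and 0.489).

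Il6st, which encodes the shared chain gp130, had group means that ran the other way. Controls read 9.20, 9.27, 9.34 and 9.33, and the mice of day 10 read 9.12, 9.25, 9.30, 9.30 and 9.38. Day 14 ran from 8.96 over a median of 9.22 to 9.30, and day 17 from 9.05 over a median of 9.14 to 9.25. On day 17, 4 of the 6 mice lay below every control and 0 lay above the highest. The differences of Il6st were -0.01 ± 0.07, -0.10 ± 0.06 and -0.14 ± 0.06 (SE, log2), and none was called (limma adjusted p = 0.959, 0.607 and 0.267). The unadjusted p on day 17 was 0.0361.

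Lifr, which encodes the receptor chain for leukaemia inhibitory factor, read 7.25, 7.27, 7.26 and 7.52 in controls and 7.54, 7.60, 7.28, 7.40 and 7.49 on day 10. It ran from 7.39 over a median of 7.55 to 7.62 on day 14 and from 7.33 over a median of 7.46 to 7.59 on day 17. Control replicate 4 lay within the tumour-bearing range, and the other 3 controls lay below all 18 tumour-bearing mice. The differences of Lifr were 0.14 ± 0.07, 0.21 ± 0.07 and 0.13 ± 0.07 (SE, log2), and none was called (limma adjusted p = 0.505, 0.229 and 0.352).

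Stat3, the transcription factor that these receptors activate by phosphorylation, read 7.95, 8.05, 7.97 and 8.08 in controls and 8.03, 8.04, 8.15, 8.06 and 8.01 on day 10. It ran from 7.98 over a median of 8.09 to 8.22 on day 14 and from 7.99 over a median of 8.08 to 8.20 on day 17. The groups overlapped on all days. The differences of Stat3 were 0.04 ± 0.06, 0.09 ± 0.05 and 0.08 ± 0.06 (SE, log2), with limma adjusted p = 0.810, 0.606 and 0.506. Transcript levels do not measure phosphorylation.

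**Figure D3:**
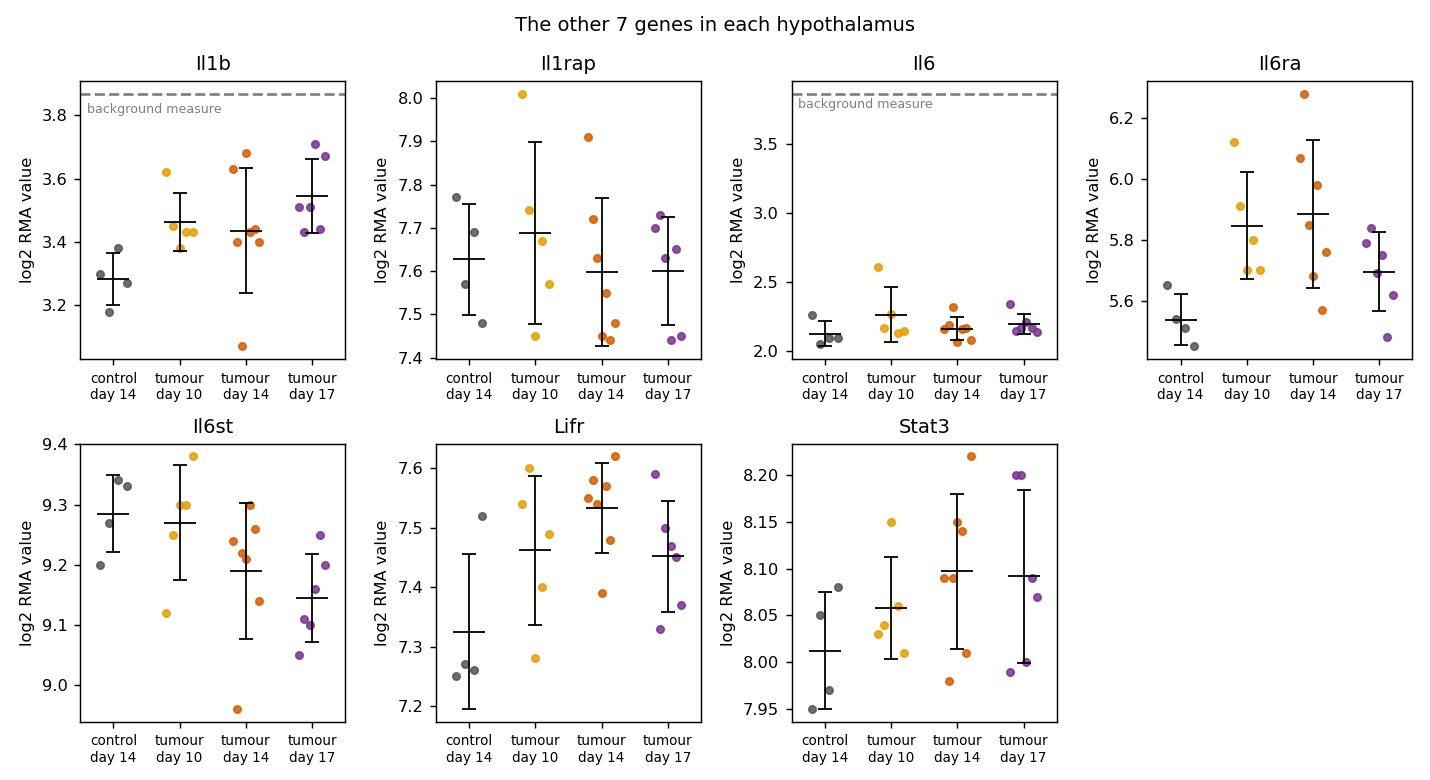
Log2 RMA values of the other 7 genes for each mouse (points), with the group mean and SD (bars), each panel on its own axis. The dashed line is the background measure of 3.87, which Il1b and Il6 did not reach on any of the 22 arrays.

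Between tumour days, limma called 0 of the 9 genes in each of the 3 comparisons, with 0 (days 14 and 10), 1 (days 17 and 10) and 0 (days 17 and 14) at an unadjusted p below 0.05, beside 7.13%, 8.3% and 4.17% of all genes. Of all genes, 0.00531%, 0% and 0% were called. Every pair of tumour-bearing groups overlapped for each of the 9 genes, while 0.399%, 0.792% and 0.0372% of all genes did not overlap. That 1 gene, a share of the 9 close to that of all genes, was Il6st, whose day 17 minus day 10 difference was -0.13 ± 0.06 (SE, log2, limma adjusted p = 0.591). Between days 17 and 10, Il1r1 differed by -0.13 ± 0.16, with a 95% interval from -0.47 to 0.20, and Osmr by -0.09 ± 0.11, with an interval from -0.33 to 0.15. These intervals leave room for a change with day in either direction.

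The genes were then compared with each other over the 22 arrays, as a description without a test. Pearson's r over the 36 pairs ran from -0.53 (Il6ra and Il6st) to 0.81 (Il1r1 and Osmr). Osmr also had r = 0.72 with Il6ra and r = 0.68 with Lifr, and Il1r1 had r = 0.68 with Lifr. After each group's mean was subtracted, r between Il1r1 and Osmr was 0.47, and between Il6ra and Il6st -0.71. The arrays share the RMA processing and the group differences described above.

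Of the genes above the background measure, those most like Il1r1 over the 22 arrays were Lcn2 (r = 0.92), which encodes lipocalin 2, Vwf (r = 0.87), which encodes von Willebrand factor, and Fkbp5 (r = 0.87). Those most like Osmr were the ceramidase gene Acer2 (r = 0.92), the glucose transporter gene Slc2a1 (r = 0.91) and Paqr5 (r = 0.89). Those most like Lifr were Tsc22d3 (r = 0.89), Adipor2 (r = 0.88) and Zbtb16 (r = 0.88). For these 9 genes r within groups ran from 0.67 (Fkbp5 with Il1r1) to 0.88 (Acer2 with Osmr). Those most like Il6ra were Egfl7 and Itpk1 (r = 0.82 each) and Heg1 (r = 0.79), and those most like Il6st were Lrch3 (r = 0.84), Tbc1d19 (r = 0.82) and Snx12 (r = 0.81). Those most like Il1rap were Gjb1 (r = 0.88), Mcam (r = 0.87) and Plekhg3 (r = 0.85), and those most like Stat3 were Slc38a1 (r = 0.81), Rgs9 (r = 0.78) and Zup1 (r = 0.76). Il1b and Il6 lay below background, so the genes most like them (Nectin4 and Ankrd34b first, r = 0.72 and 0.86) describe low signals.

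Other genes of the pathways were taken from lists, without the 9 genes themselves. These lists were chosen with earlier results of these data known. Counts within them that exceed the share of all genes can therefore reflect that choice. Among 25 measured genes of the IL-1 family and its signalling, 0 passed the limma test against control on any of the 3 days. At an unadjusted p below 0.05 there were 0, 3 and 1 of the 25, beside 10.7%, 10.5% and 16.6% of all genes. The 3 genes with the smallest p are given as the naming rule sets, and none of them passed. On day 14 Il33, an alarmin of the IL-1 family, differed by -0.32 ± 0.09 (SE, log2, limma adjusted p = 0.145). Il1a, the gene of IL-1 alpha, differed by 0.32 ± 0.09 on day 14 (limma adjusted p = 0.152) from a mean of 2.92 in controls, below background. Ikbkb, a kinase upstream of NF-kB, differed by -0.14 ± 0.06 on day 17 (limma adjusted p = 0.239). The median difference of the list was 0.00, 0.01 and 0.02 on the 3 days.

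Of 11 measured gp130 ligands and other alpha receptors, limma called 0 on each day and 0 had an unadjusted p below 0.05. Only 5 of these 11 genes had a mean above background. The smallest p belonged to Lif, which encodes leukaemia inhibitory factor, at 0.20 ± 0.10 on day 10 (SE, log2, limma adjusted p = 0.516). Its mean was 3.41 in controls and 3.61 on day 10, below background. Of 11 other genes of the JAK-STAT core, limma called 0 on each day. There were 0, 1 and 2 at an unadjusted p below 0.05, beside 10.7%, 10.5% and 16.6% of all genes. Jak1, which encodes a kinase bound to gp130, differed by -0.09 ± 0.06, -0.12 ± 0.06 and -0.15 ± 0.06 on days 10, 14 and 17 (limma adjusted p = 0.595, 0.453 and 0.186). Of 13 inhibitors of JAK-STAT signalling, limma called 0 on each day, with 5, 1 and 1 at an unadjusted p below 0.05. The shares of all genes at that threshold were 10.7%, 10.5% and 16.6%. The 5 of day 10 went both ways, and 5, 3 and 5 of the 13 means were higher than in controls. Pias3, an inhibitor of STAT3, differed by -0.20 ± 0.07 on day 10 (limma adjusted p = 0.296). Socs2 differed by 0.24 ± 0.10 on day 10 and Socs4 by -0.22 ± 0.08 on day 17 (limma adjusted p = 0.392 and 0.177). Socs3, the feedback inhibitor that STAT3 induces, was picked out after its values were seen, and differed by 0.17 ± 0.09, 0.07 ± 0.09 and 0.10 ± 0.09 (limma adjusted p = 0.543, 0.823 and 0.606).

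Of 18 measured genes known to respond to STAT3, 2 rose on day 10, 1 on day 14 and 1 on day 17, and 0 fell. The shares of all genes called higher were 0.101%, 0.197% and 0.436%. At an unadjusted p below 0.05 in limma there were 6, 6 and 4 of the 18, beside 10.7%, 10.5% and 16.6% of all genes. Lcn2 rose by 2.21 ± 0.39, 2.27 ± 0.37 and 1.81 ± 0.38 (SE, log2, limma adjusted p = 0.0280, 0.00738 and 0.0240). Ifitm3, which interferon also induces, rose by 1.06 ± 0.18 on day 10 (limma adjusted p = 0.0280) and differed by 0.72 ± 0.17 and 0.69 ± 0.17 on days 14 and 17 (limma adjusted p = 0.0826 and 0.0542). Bcl3, a regulator of NF-kB, differed by 0.52 ± 0.11, 0.25 ± 0.10 and 0.01 ± 0.10 (limma adjusted p = 0.0693, 0.389 and 0.986). The list's median difference was 0.10 on each of the 3 days, with 17, 14 and 15 of 18 means higher than in controls.

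Of 18 measured genes known to respond to IL-1 and NF-kB, 2 rose on day 10, 0 on day 14 and 1 on day 17, and 0 fell. The shares of all genes called higher were 0.101%, 0.197% and 0.436%. At an unadjusted p below 0.05 in limma there were 4, 6 and 4 of the 18 on days 10, 14 and 17, beside 10.7%, 10.5% and 16.6% of all genes. Ptgs2, which encodes the inducible cyclooxygenase of prostaglandin synthesis, rose by 1.15 ± 0.20 on day 10 (SE, log2, limma adjusted p = 0.0280) and differed by 0.50 ± 0.19 and 0.69 ± 0.20 on days 14 and 17 (limma adjusted p = 0.340 and 0.0848). The chemokine gene Cxcl10 rose by 0.93 ± 0.17 on day 10 (limma adjusted p = 0.0325), and the adhesion molecule gene Icam1 rose by 0.53 ± 0.13 on day 17 (limma adjusted p = 0.0432). The list's median difference was 0.15, 0.08 and 0.14, with 16, 14 and 12 of 18 means higher than in controls.

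Marker lists of cell types and neighbouring tissue were set beside these results. Of 16 measured hypothalamic genes, 15 had a mean above background, Crh being the exception. The mean of 11 endothelial markers was 6.70 to 6.91 in controls, 6.76 to 7.08 on day 10, 6.74 to 7.16 on day 14 and 6.78 to 7.05 on day 17, and 0 of 11 were called on each day. At an unadjusted p below 0.05 there were 0, 4 and 4 of these 11, beside 10.7%, 10.5% and 16.6% of all genes. The mean of 8 pericyte markers was 6.21 to 6.22 in controls and ran from 6.12 to 6.62 in tumour-bearing mice, and 0 of 8 were called. Among these pericyte markers 6, 7 and 6 had a higher mean on days 10, 14 and 17, with median differences of 0.09, 0.15 and 0.05 (log2). For the 11 endothelial markers these counts were 8, 7 and 8, with median differences of 0.08, 0.11 and 0.15. Of 9 leukocyte markers, 4 had a mean above background and 0 were called, while 8, 8 and 7 of the 9 had a higher mean on days 10, 14 and 17. Of 11 microglia markers, 0, 1 and 1 were called lower on days 10, 14 and 17, and of 6 ependyma and tanycyte markers 0, 0 and 1. Of all genes, 0.106%, 0.218% and 1.12% were called in either direction, and 0.101%, 0.197% and 0.436% higher. Means of the 11 microglia markers were higher than in controls for 8, 4 and 1 and lower for 3, 7 and 10. Those of the 6 ependyma and tanycyte markers were higher for 2 and lower for 4 on each day. Of the 16 hypothalamic genes, 0, 1 and 2 were called higher and 0 lower. Their means were higher than in controls for 7, 8 and 7 of the 16 and lower for 9, 8 and 9. At an unadjusted p below 0.05 there were 6, 3 and 5 of them, and those of days 10 and 17 went both ways. None of 10 astrocyte, 7 oligodendrocyte, 8 meningeal fibroblast and 6 choroid plexus markers was called by limma on any of the 3 days, with at most 2 of each list at an unadjusted p below 0.05. Of the 8 meningeal fibroblast markers, 8, 6 and 6 had a higher mean than in controls on days 10, 14 and 17, with median differences of 0.35, 0.24 and 0.05 (log2) and 0 at an unadjusted p below 0.05. All 15 thalamus markers had a lower mean in tumour-bearing mice on each day, with median differences of -0.34, -0.26 and -0.39 (log2). None passed limma's adjusted threshold, 7, 2 and 5 of the 15 had an unadjusted p below 0.05, and the list mean of the controls ran from 6.16 to 7.13. The mean of 3 red cell markers was 4.01 to 5.00 in controls, 4.82 to 5.78 on day 10, 4.99 to 6.22 on day 14 and 5.63 to 6.86 on day 17, with 0, 2 and 2 of 3 called higher. Control replicate 4, the highest control for Il1r1, Osmr and Lifr, was also the highest control for red cell markers (5.00), and replicate 6 of day 14, the lowest of its group for Il1r1 and Osmr, was the lowest of its group for them (4.99). That mouse was also the lowest of day 14 for the endothelial (6.74), pericyte (6.17) and thalamus means (6.08), and control replicate 4 was the lowest control for those 3 lists (6.70, 6.21 and 6.16).

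**Figure D4:**
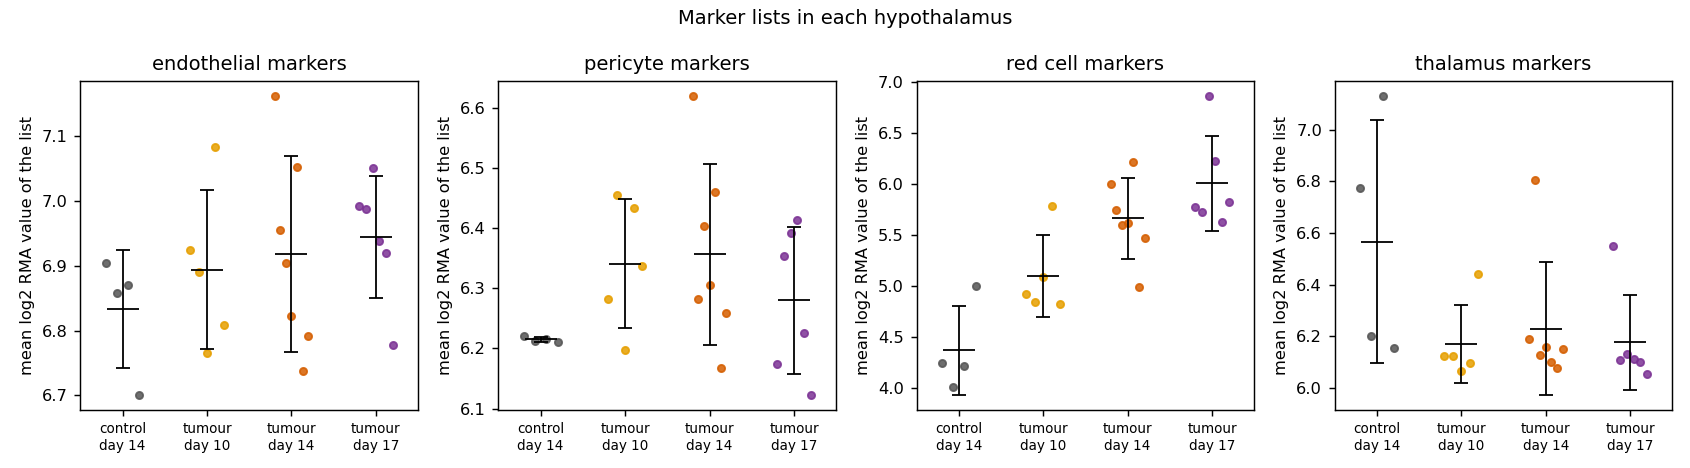
Mean log2 RMA value of the endothelial, pericyte, red cell and thalamus marker lists for each mouse (points), with the group mean and SD (bars). The mean of the red cell list was higher on days 10, 14 and 17 than in controls, with 0, 2 and 2 of 3 markers called and an overlap with control replicate 4 on days 10 and 14, while 2 of the 4 controls were high for thalamus markers.

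With the endothelial mean as a covariate, Il1r1 differed by 0.83, 0.80 and 0.62 (log2) on days 10, 14 and 17 and Osmr by 0.60, 0.63 and 0.48, and the calls of day 17 were lost (limma adjusted p = 0.0736 and 0.0793). With the pericyte mean, Il1r1 differed by 0.74, 0.71 and 0.69 and Osmr by 0.53, 0.55 and 0.50, and the calls of days 10 and 14 were lost. With the thalamus mean, the differences were 0.90, 0.90 and 0.76 for Il1r1 and 0.66, 0.70 and 0.57 for Osmr, and all calls were lost (limma adjusted p from 0.0520 for Osmr on day 14 to 0.170 for Il1r1 on day 10). Without the 4 arrays highest in thalamus markers, 2 of which were controls, Il1r1 differed by 0.82, 0.84 and 0.66 and Osmr by 0.54, 0.56 and 0.42, and none was called. With the red cell mean, Il1r1 differed by 0.60, 0.35 and 0.07 and Osmr by 0.54, 0.50 and 0.32, and none was called (limma adjusted p from 0.584 to 1.00). The red cell list itself differed between the groups, so such a covariate also takes up group differences. Over all arrays, r between the red cell mean and Il1r1 was 0.71, and 0.63 within groups, and for Osmr it was 0.61 and 0.31. For Il1r1, r was 0.66 with the leukocyte mean (0.66 within groups), 0.63 with the pericyte mean (0.58), 0.55 with the endothelial mean (0.59) and 0.46 with the meningeal fibroblast mean (0.49). For Osmr, r was 0.63 with the pericyte mean (0.58 within groups), 0.47 with the endothelial mean (0.47), 0.45 with the leukocyte mean (0.30) and 0.36 with the meningeal fibroblast mean (0.32). Of all genes, 0, 10 and 83 were called with the thalamus mean, and 0 on each day both with the red cell mean and without the 4 arrays. With the pericyte mean 1, 6 and 112 were called, and with the endothelial mean 20, 32 and 63. As reported, without a covariate, these counts were 20, 41 and 211. Whether blood, vessel, meningeal or dissection content had a part in the rises of Il1r1 and Osmr was not tested beyond these values.

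The accessions list the 4 groups in 2 passes, of 9 and 13 samples, and the labels do not call these batches. The first pass holds 1 control. Within it Il1r1 was higher than in that control by 0.96, 1.12 and 0.89 (log2) on days 10, 14 and 17, and within the second pass, with 3 controls, by 0.92, 0.81 and 0.75. For Osmr these values were 0.69, 0.87 and 0.54, and 0.61, 0.54 and 0.56. With a term for the pass both genes were called on every day (highest limma adjusted p = 0.0499, for Il1r1 on day 10), and within either pass alone neither was called. Of all 18820 genes, 0 were called in the second pass alone and 1 in the first on each day, so these fits say little about single genes.

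**Figure D5:**
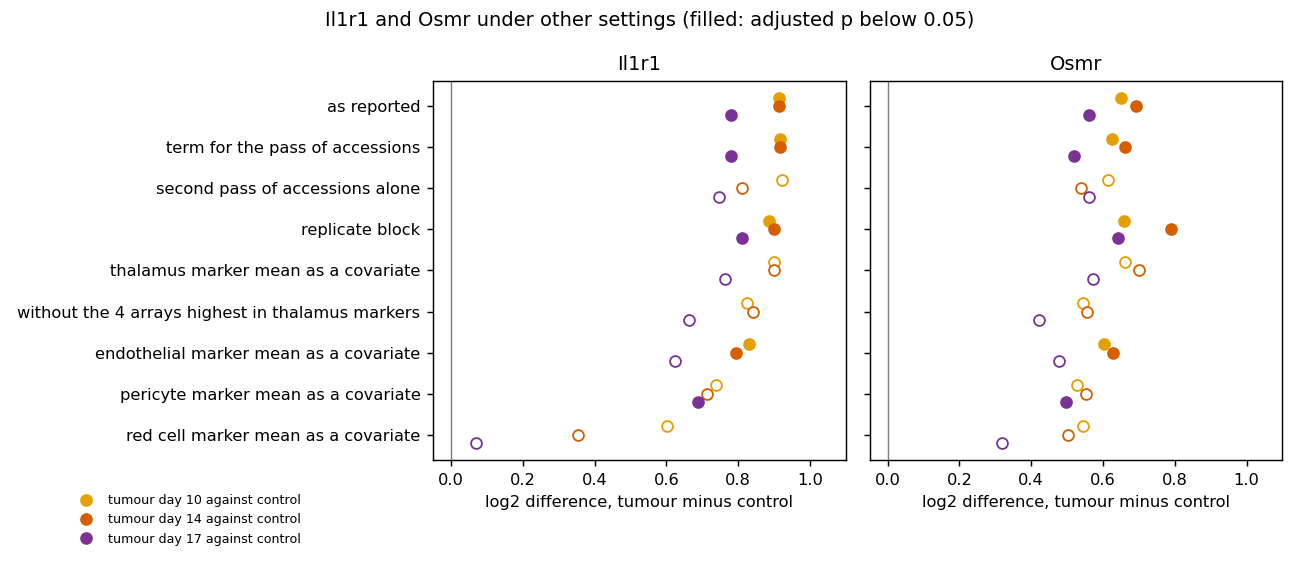
Log2 difference of Il1r1 and Osmr from control on days 10, 14 and 17 as reported and under 8 other settings, filled where the adjusted p was below 0.05. All points lie above 0. Among the points of Il1r1, those with the red cell mean as a covariate lie lowest on each day, at 0.60, 0.35 and 0.07.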

How the data were processed

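Hypothalamic RNA of 22 mice was measured, 1 array per mouse. The authors deposited log2 values. Per the submitters' processing notes the tool was RMA, a method that corrects background, normalizes between arrays and summarizes probes. The RMA version, genome build and annotation are not given in the sources used here. Of 35556 probe sets, the platform annotation pairs 21218 with 1 gene, 1881 with several, and 12457 are unnamed here. The probe set with the highest mean stood for each of 18820 genes, with no low-value filter.

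A linear model with 4 group means was run over the 22 arrays in limma 3.58.1 (R 4.3.3), with untrended eBayes and 18 residual degrees of freedom. Two-sided p-values were adjusted over all genes by Benjamini-Hochberg, and below 0.05 counted as called. The fit was also run on simulated data with independent noise for each gene. Such data hold no effects shared by the genes of an array, so that run does not bear on such effects here. Medians of the arrays lay between 5.27 and 5.34 and their pairwise correlations between 0.980 and 0.995, with 0 identical pairs. The labels describe separate mice. The number of arrays limits the precision.

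The 9 genes, the 7 pathway lists and the 12 marker lists were chosen with earlier results of these data known. Named were the 9 genes, up to 3 genes with the smallest p of each pathway list, and the 3 genes most like each of the 9, among 13013 coding genes above background. Replicate numbers recur between groups. Deviations from group means of same-numbered mice correlated from -0.19 to 0.35 over 28 pairs, 15 of them above 0.1. Mice of different numbers were not compared in this way, so these values cannot tell whether same-numbered mice belong together. The labels state no pairing, and the mice were treated as unpaired. Alternative settings, among them the replicate number as a block, are given in the closing section.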

Additional observations from a re-analysis of the deposited data

Results flagged for a closer look

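Each of the 9 genes was checked in each of the 4 groups for a mouse far from the rest of its group, 36 checks in all, of which chance alone marks about 1 in 20. Control replicate 4 stood above the other controls for Lifr (7.52, the next being 7.27). Without it Lifr differed by 0.20, 0.27 and 0.19 (log2) on days 10, 14 and 17, with limma adjusted p = 0.302, 0.0684 and 0.164. Replicate 1 of day 10 stood above its group for Il1b (3.62, the next being 3.45), and replicate 1 of day 17 for Il6 (2.34, the next being 2.21), both below the background measure of 3.87.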

How the results depend on the processing

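In the comparisons with control, the differences of the 9 genes were recomputed or set against another threshold 1128 times in all. Of these, 1015 kept their sign and their side of the threshold, 87 lost a call and 1 gained one. The other 25 had the other sign, 0 of them of a called value. Only Il1r1 and Osmr had calls to lose, so most of the 1015 were uncalled values that stayed uncalled. Il1r1 lost its call on days 10, 14 and 17 in 7, 8 and 7 of 20 settings, and Osmr in 7, 7 and 7. With 1 mouse left out, each lost it in 12, 3 and 7 of 22 fits. The number of the 9 genes called, 2 on each day as reported, was 2 on each day with a variance trend, robust variance, array weights, either rescaling, either probe set rule, the low-value filter, a term for the pass and a threshold of 0.10. It was 0 on each day with the thalamus or red cell mean as a covariate, without the 4 arrays highest in thalamus markers, and in either pass alone. It was 0 on day 14 with only the groups compared (limma adjusted p = 0.121 for Il1r1 and 0.106 for Osmr), 0 on day 17 with the endothelial mean, 0 on days 10 and 14 with the pericyte mean, and 0, 1 and 0 on days 10, 14 and 17 at a threshold of 0.01. With only the groups compared, 0 of all genes were called on day 14. All genes called were 63 on day 17 with the endothelial mean, and 1 and 6 on days 10 and 14 with the pericyte mean. At a threshold of 0.01 they were 1, 15 and 35. With 1 mouse left out, the number of the 9 genes called ran from 0 to 2 on each day, moving in 15, 3 and 8 of 22 fits. With the replicate number as a block it was 2, 3 and 2, the third being Il6ra on day 14 (0.44, limma adjusted p = 0.0270), and the block moved the count over all genes on day 14 from 41 to 140 and on day 17 from 211 to 616. Over all genes, 20, 41 and 211 were called on days 10, 14 and 17, and between 0 and 76, 0 and 140, and 0 and 616 under the other settings, or between 0 and 25, 2 and 115, and 37 and 382 with 1 mouse left out. Between days, 0 of the 9 genes were called by limma under every setting run. The settings with the first pass alone and the pericyte or red cell mean were chosen after the data were seen. The cause of these shifts was not tested.

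Uncalled values near 0 changed sign. Il1rap on day 10 was -0.018 in the second pass and -0.010 with the pericyte mean. Il1rap on day 14 was 0.037 with the replicate block, 0.039 with the thalamus mean and 0.048 without the 4 arrays. Il1rap on day 17 was 0.0015 after a second quantile normalization, 0.022 with the block, 0.055 with the thalamus mean and 0.054 without the 4 arrays. Il6st on day 10 was 0.012 with array weights, 0.0082 after a second quantile normalization, 0.0022 with the pass term and 0.014 in the second pass. Stat3 on day 10 was -0.018 with the thalamus mean and -0.0071 without the 4 arrays, and on day 17 was -0.012 with the red cell mean. Il6 in the first pass was -0.037 on day 14 and -0.040 on day 17. With 1 mouse left out, Il1rap ran from -0.020 to 0.12, from -0.084 to 0.014 and from -0.077 to 0.019 on days 10, 14 and 17, and Il6st on day 10 from -0.044 to 0.022.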

Other observations

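Receptor genes of other cytokine families were taken from a list of 20, chosen with earlier results of these data known, of which 17 were measured. Limma called 0 of them on days 10, 14 and 17. There were 2, 2 and 1 at an unadjusted p below 0.05, beside 10.7%, 10.5% and 16.6% of all genes. The 3 genes with the smallest p are given as the naming rule sets, and none of them passed. Lepr, the leptin receptor gene, differed from control by 0.27 ± 0.14, 0.44 ± 0.13 and 0.50 ± 0.14 (SE, log2) on the 3 days, with limma adjusted p = 0.505, 0.193 and 0.0708. Il17ra, a receptor chain of interleukin 17, differed by 0.40 ± 0.12 on day 10 (limma adjusted p = 0.238), and Ifngr1, a chain of the interferon gamma receptor, by 0.13 ± 0.06 (limma adjusted p = 0.440). The median difference of the list was 0.05, 0.06 and 0.02.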
